A study of Rosa roxburghii with 15 samples.

Results

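Levels of 3 MYB homologs named after barrier regulators were followed through 5 tissues of Rosa roxburghii, a shrub of the rose family grown for its edible fruit. TRINITY_DN144669_c3_g1 and TRINITY_DN144626_c1_g2 have a MYB306-like protein as best match, from Prunus persica and Fragaria vesca respectively. TRINITY_DN149746_c2_g7 has a MYB36-like protein of Prunus mume as best match. The prefix TRINITY is left out of the names below. They are 3 of the 11 unigenes with these names among the 163 MYBs in the study's table and of 63727 unigenes in all. They were chosen by name and with their tissue levels known, so these levels are described without a test. All 3 passed the filter on low values (above 0.1 FPKM in at least 3 libraries), DN144669_c3_g1 only through its flower libraries.

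MYB proteins are transcription factors defined by a DNA-binding repeat. MYB306 was named in snapdragon, and its relatives in Arabidopsis include MYB30, MYB94 and MYB96, which activate the synthesis of cuticular wax, and MYB60, which acts in the guard cells of leaves. MYB36 of Arabidopsis switches on the genes that build the Casparian strip, the lignified seal around the root endodermis. The unigenes carry these names because of a protein match to another plant, so their roles in R. roxburghii are not known from these data. The study types DN144669_c3_g1 as an R2R3 MYB, DN144626_c1_g2 as a MYB with 4 repeats and DN149746_c2_g7 as an R1 MYB.

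The wild plants were seedlings in pots outdoors, and each tissue gave 3 libraries. Leaf was mature blades without the petiole, stem was new shoots, flower was in full bloom, young fruit was taken 50 days and mature fruit 120 days after flowering. No root was sampled. May was the month of harvest for leaf, stem and flower, July for the younger fruit and September for the older. Tissue and month therefore cannot be told apart wherever fruit is compared with another tissue. The paper describes 3 biological replicates per tissue, whereas the labels describe 2 biological replicates of 3 plants each. The p-values below measure only the spread between libraries, part of which may be technical.

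The level was given in FPKM, the fragments aligned to a unigene after scaling to its length and to the depth of the library. No counts come with it, so the counting error is unknown, and a unigene described as listed at 0 need not be absent. The steps of values below 0.15 FPKM put the depth of the shallowest library at 0.649 of that of the deepest, stem library 1. Correlated across unigenes, any pair of libraries from the same tissue had a Pearson's r of 0.943 to 0.967, and any pair from unlike tissues one of 0.729 to 0.903. In mature fruit, 2792 unigenes had a level in libraries 2 and 3 and in no others of the 15, against 68 and 62 for the other pairs of that tissue. The tissue labels could be checked only through MYBs. The summed level of 5 homologs of secondary wall regulators (MYB46, MYB63, MYB86) was 80.4 to 86.5 FPKM in stem and at most 34.8 elsewhere. The sum of 8 homologs of petal and stamen regulators (MYB21, MYB24, MYB108, MYB305) was 11.1 to 12.8 FPKM in flower, 11.3 to 14.2 in young fruit, 9.85 to 11.02 in stem and 1.62 to 2.37 in leaf and mature fruit, so it did not set flower apart from young fruit.

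DN144669_c3_g1, the first MYB306-like unigene, had nearly all of its level in flower. Its levels in the flower libraries were 7.60, 8.04 and 7.27 FPKM, with a mean of 7.64 ± 0.382 (SD, n = 3). The stem libraries had 0.129, 0.10 and 0.0803 FPKM, and the 9 libraries of leaf, young fruit and mature fruit were listed at 0. All flower libraries lay above the other 12, which held for 9.14% of the unigenes tested, and the mean in flower was 73.9 times that in stem. The fitted difference between flower and stem was 5.26 (SE 0.20) on the log2(FPKM + 0.1) scale, which understates changes of low values. A pseudocount of 0.01 gave 6.10 and one of 1 gave 2.97. No fold is given against the tissues at 0. Among the 163 MYBs, this unigene ranked 44 in flower and 133 in stem by mean level. The flower libraries lay close together, with an SD of 5.01% of the mean, against a median of 8.25% over unigenes of at least 1 FPKM in flower. In bulk tissue, fewer cells that hold a transcript and less of it per cell cannot be told apart.

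DN144626_c1_g2, the second MYB306-like unigene, was highest in leaf and lowest in fruit. The leaf libraries had 29.3, 28.4 and 32.2 FPKM and the stem libraries 7.67, 6.42 and 8.63. The flower libraries had 5.42, 6.25 and 6.12 FPKM. The levels in young fruit were 1.03, 1.14 and 1.19 FPKM and those in mature fruit 0.433, 0.109 and 0.481. By mean, the order from the highest was leaf, stem, flower, the younger fruit and the older fruit. The ranges of stem and flower nearly met, with 6.42 FPKM as the lowest in stem and 6.25 as the highest in flower. All leaf libraries lay above the other 12, as in 7.34% of the unigenes tested. The step from stem to leaf was 1.98 (SE 0.29) on the log2(FPKM + 0.1) scale, a ratio of means of 3.95. Stem and flower lay nearest to each other, 0.34 apart (SE 0.29), with a 95% interval of the flower minus stem difference of -0.98 to 0.30. Flower was 2.30 above young fruit and young fruit 1.60 above mature fruit on this scale (SE 0.29 for each). In leaf this unigene was the 11th most abundant of the 163 MYBs (rank 11), and in mature fruit it ranked 83. Its spread between libraries was 6.62% of the mean in leaf and 59.3% in mature fruit, where library 2 was lowest.

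DN149746_c2_g7, the MYB36-like unigene, was highest in flower but present in every library. The flower libraries had 11.02, 16.7 and 16.5 FPKM, with library 1 below the other two. The stem libraries had 2.64, 3.04 and 4.15 FPKM and the young fruit libraries 3.26, 2.46 and 3.45. The leaf libraries had 3.18, 1.25 and 1.31 FPKM, and mature fruit had 1.57, 1.41 and 1.40. Flower stood above the other 12 libraries (the share of unigenes for which this held is the 9.14% given above), whereas stem and young fruit, young fruit and leaf, and leaf and mature fruit overlapped. The difference between flower and stem was 2.14 (SE 0.31) on the log2(FPKM + 0.1) scale, a ratio of means of 4.50. Stem and young fruit differed by 0.09 (SE 0.31) and leaf and mature fruit by 0.24 (SE 0.31), less than their spread. The place of leaf above mature fruit rests on leaf library 1, since the other leaf libraries lie below all 3 of mature fruit. It ranked 26 among the MYBs in flower and between 60 and 71 in the other tissues. Leaf library 1 decided the spread in leaf, which was 57.2% of the mean, against 22.0% in flower and 6.40% in mature fruit. Over unigenes of at least 1 FPKM the median spread was 8.97% for leaf, 8.25% for flower and 14.9% for mature fruit.

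**Figure D1:**
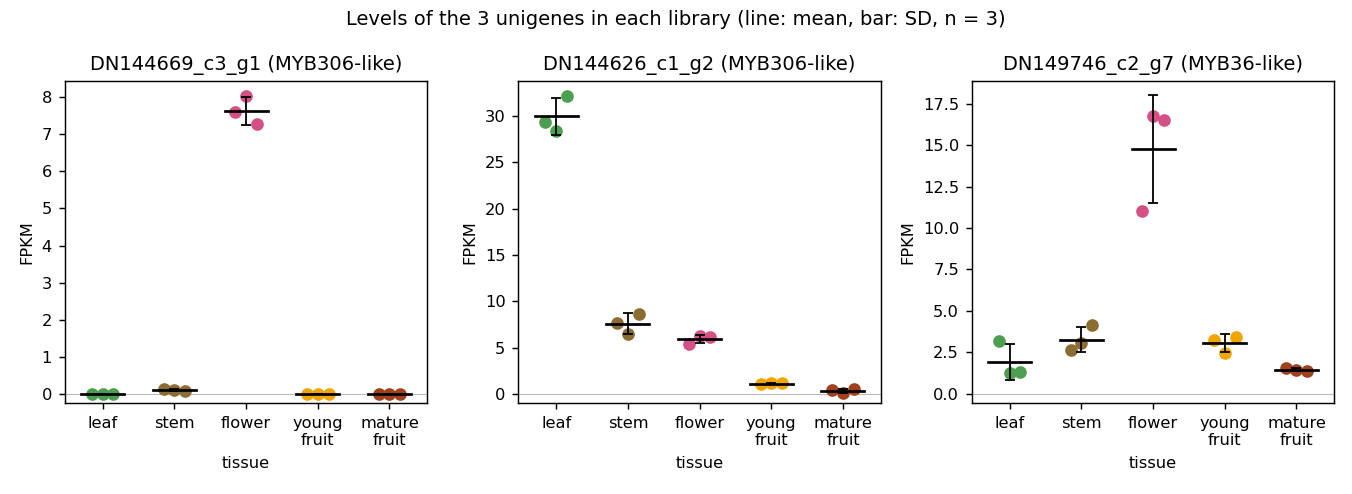
Level in FPKM (vertical axis, linear) of the 3 unigenes in each of the 15 libraries, by tissue. Points are libraries, the horizontal line is the mean and the bar the SD of 3. DN144669_c3_g1 stands at 7.27 to 8.04 FPKM in flower and at or near 0 elsewhere, DN144626_c1_g2 steps down from 28.4 to 32.2 FPKM in leaf, and DN149746_c2_g7 is at 11.02 to 16.7 FPKM in flower.

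Summed over the 8 unigenes named MYB306-like, leaf had 31.03 ± 2.04 FPKM, flower 15.5 ± 0.809, stem 10.3 ± 1.30, young fruit 7.65 ± 0.361 and mature fruit 5.01 ± 0.510 (SD, n = 3). A different unigene led this sum in leaf, flower and fruit. DN144626_c1_g2 made up 96.5% of the sum in leaf and 73.8% in stem. In flower DN144669_c3_g1 held 49.2% and DN144626_c1_g2 38.2%, and the former was the higher of the pair in each of the 3 flower libraries. In young and mature fruit DN144626_c1_g2 held 14.6% and 6.82% of the sum, and DN145149_c1_g1, a MYB306-like unigene with a Fragaria vesca best match, held 56.7% and 61.7%. DN146048_c0_g6, matched to a Pyrus protein, held 20.2% and 28.4% in the same tissues. The 3 MYB36-like unigenes summed to 17.7 ± 2.74 FPKM in flower and to between 3.05 and 7.39 FPKM in the other tissues, and DN149746_c2_g7 held 83.3% of the sum in flower and 41.3% to 55.5% elsewhere.

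**Figure D2:**
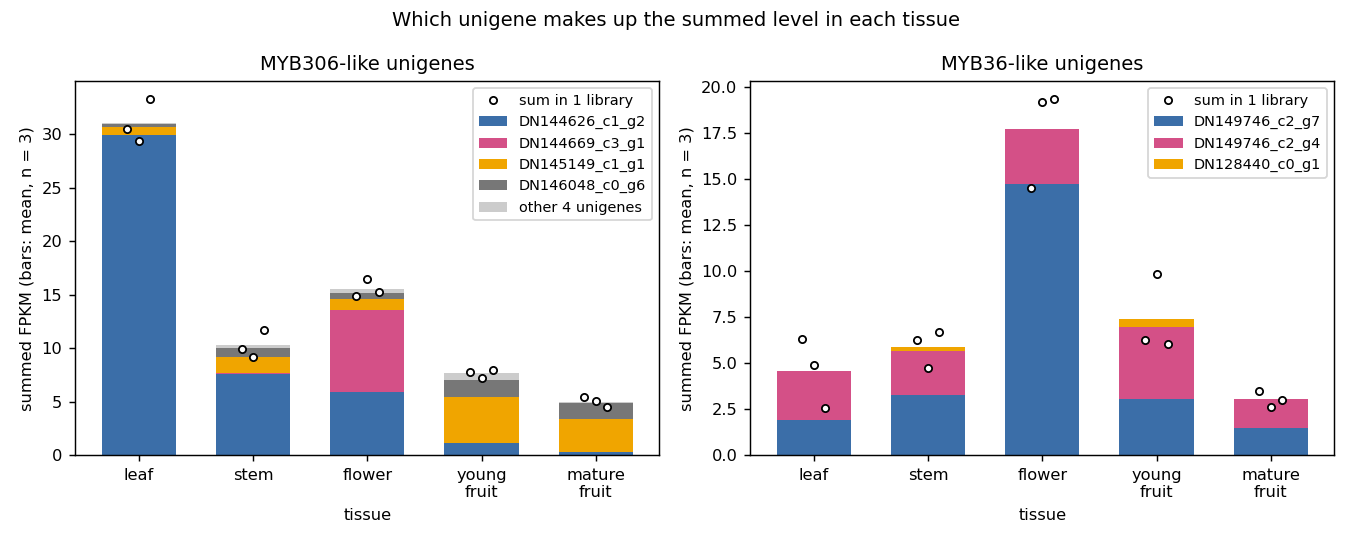
Summed FPKM of the MYB306-like unigenes (left) and the MYB36-like unigenes (right) by tissue. Bars stack the mean of 3 libraries per unigene and open points give the sum in each library. The MYB306-like sum is mostly DN144626_c1_g2 in leaf (96.5%), mostly DN144669_c3_g1 and DN144626_c1_g2 in flower and mostly DN145149_c1_g1 in fruit (56.7% and 61.7%).

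The other 8 unigenes with these names were examined for differences between tissues. Of the 8, 5 passed the filter on low values, and 3 of these differed between at least 1 pair of tissues (limma over all 51175 unigenes tested, adjusted p of at most 0.01 and a log2 fold change of at least 1 in size). Over all unigenes tested the share was 69.8%. The 3 were the MYB306-like DN145149_c1_g1 and DN146048_c0_g6 and the MYB36-like DN128440_c0_g1. None of the 5 was higher in leaf than in another tissue or higher in flower than in another tissue by these thresholds. The 3 unigenes described were chosen with their tissue levels known, so this absence may follow in part from that choice. Over all unigenes tested, 12.2% were called higher in flower than in leaf and 10.1% higher in flower than in stem. DN145149_c1_g1 had 4.57, 4.67 and 3.78 FPKM in young fruit, 3.23, 3.55 and 2.49 in mature fruit, 1.40, 1.66 and 1.54 in stem, 1.13, 0.771 and 1.11 in flower and 0.752, 0.659 and 0.603 in leaf. All 6 fruit libraries lay above the other 9, as in 7.38% of the unigenes tested. Against leaf it was 2.52 (SE 0.19, limma adjusted p = 8.85e-08) higher in young fruit and 2.04 (SE 0.19, limma adjusted p = 7.93e-07) higher in mature fruit on the log2(FPKM + 0.1) scale, calls made for 27.2% and 18.2% of all unigenes tested. Against flower these differences were 2.02 and 1.53 (limma adjusted p = 8.64e-07 and 1.38e-05), where 22.7% and 13.4% of all were called higher. Against stem, young fruit was 1.44 higher (limma adjusted p = 2.89e-05), whereas mature fruit was 0.95 higher, under the threshold on the fold. The mature minus young fruit difference was -0.49 (95% interval -0.90 to -0.08, limma adjusted p = 0.0498), which did not pass.

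DN146048_c0_g6 was lower but ordered in the same way. It had 1.65, 1.44 and 1.54 FPKM in young fruit and 1.56, 1.40 and 1.31 in mature fruit, all above its stem libraries (0.676, 0.721 and 0.932), flower libraries (0.639, 0.383 and 0.614) and leaf libraries (0.329, 0.222 and 0.351). All fruit libraries lay above the rest in 7.38% of the unigenes tested. Young and mature fruit were 2.05 and 1.94 above leaf (SE 0.24, limma adjusted p = 7.28e-06 and 1.44e-05) and 1.37 and 1.26 above flower (limma adjusted p = 0.00028 and 0.000656). With a pseudocount of 1 the 4 differences were between 0.65 and 0.97, under the threshold on the fold, and the difference between mature fruit and flower was also lost without mature fruit libraries 2 and 3 (1.39, limma adjusted p = 0.0121) and in a fit on the 6 libraries of the pair alone (1.26, limma adjusted p = 0.0105). Both unigenes, like 14.1% of all, were also higher in stem than in leaf, by 1.08 (limma adjusted p = 0.000399) for DN145149_c1_g1 and 1.13 (limma adjusted p = 0.00194) for DN146048_c0_g6, but with median-of-ratios scaling these values were 0.89 and 0.96 and no longer passed, nor did they with a pseudocount of 1 (0.60 and 0.45). The call for DN146048_c0_g6 was also lost without leaf library 2 (0.98) or stem library 3 (1.01, limma adjusted p = 0.0111), and in a fit on the pair alone (1.13, limma adjusted p = 0.0295). For DN146048_c0_g6, young and mature fruit lay 0.92 and 0.81 above stem, under the threshold on the fold. Fruit against leaf, stem or flower is also July or September against May.

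The MYB36-like DN128440_c0_g1, also matched to Prunus mume, was low and, unlike DN149746_c2_g7, was not found in flower. It had 0.294, 0.239 and 0.646 FPKM in young fruit and 0.203, 0.197 and 0.305 in stem, it was listed at 0 in all leaf and flower libraries, and mature fruit had 0.0237 in library 1 and 0 in the other two. It passed the filter on low values only through its stem and young fruit libraries, the tissues then called higher. Young fruit was called higher than mature fruit, leaf and flower, and stem higher than the same 3 tissues (limma adjusted p between 6.03e-06 and 0.000145). Young fruit higher than leaf was called for 27.2% of all unigenes tested, and young fruit higher than flower for 22.7%. Stem higher than leaf was called for 14.1%. None of the calls for DN128440_c0_g1 passed with a pseudocount of 1. The call of stem against mature fruit was also lost without mature fruit libraries 2 and 3, where the mature fruit minus stem difference was -1.42 (limma adjusted p = 0.0143). The third MYB36-like unigene, DN149746_c2_g4, was not called in any pair. It ranged from 1.22 to 3.65 FPKM in all but 1 library, young fruit library 2 at 7.14, and its difference between flower and stem was 0.35 with a 95% interval of -0.68 to 1.38. The MYB306-like DN143182_c1_g10, at 0.521 FPKM or less in every library, was not called either. The last 3 MYB306-like unigenes did not reach the filter. DN145149_c1_g6 was listed at 0 in all libraries, DN144626_c4_g1 had 0.888 FPKM in flower library 2 alone, and DN197272_c0_g1 had 1.09 FPKM in young fruit library 3 alone. Over the 5 tested, the median difference between young fruit and leaf was 2.05 (0.27 over all unigenes tested). That between mature fruit and leaf was only 0.10 (0 over all) and that between flower and leaf 0.25 (0.03 over all).

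**Figure D3:**
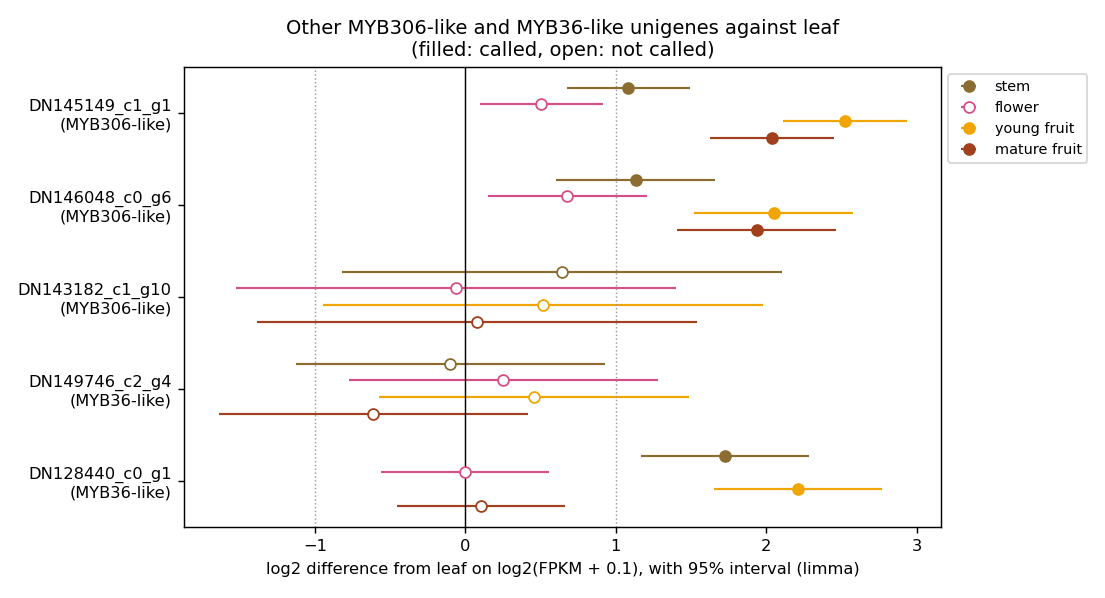
Difference of stem, flower, young fruit and mature fruit from leaf on the log2(FPKM + 0.1) scale (horizontal axis) for the 5 other MYB306-like and MYB36-like unigenes tested, with 95% intervals from limma. Filled points passed both thresholds, and dotted lines mark a difference of 1. The fruit points of DN145149_c1_g1 (2.52 and 2.04) and DN146048_c0_g6 (2.05 and 1.94) lie to the right, and no flower point is filled.

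Other homologs named after barrier regulators of Arabidopsis were MYB96, an activator of wax synthesis, and MYB9, MYB39 and MYB92, activators of suberin synthesis. Of these 5 unigenes 4 were tested, 2 of them differed between at least 1 pair of tissues (69.8% over all unigenes), and 2 did not pass. The MYB92 homolog DN66535_c0_g1 was the most abundant of all these barrier homologs in flower, at 33.9, 31.7 and 33.3 FPKM. All its flower libraries lay above the other 12, as in 9.14% of the unigenes tested. Young fruit had 19.7, 21.1 and 18.0 FPKM, stem 13.9, 16.1 and 14.8, mature fruit 13.5, 14.3 and 14.5 and leaf 6.97, 6.36 and 6.49. Flower was 2.30 above leaf and 1.14 above stem (SE 0.08 for each, limma adjusted p = 2.17e-10 and 9.08e-08), as 12.2% and 10.1% of all unigenes were called. From flower the difference was -1.22 to mature fruit (limma adjusted p = 1.52e-08) and -0.75 to young fruit, the latter under the fold threshold. The MYB39 homolog DN267156_c0_g1 was low, with 0.360, 0.167 and 0.213 FPKM in stem and at most 0.154 in any other library. It passed the filter on low values only because of its stem libraries, so the filter favoured a call of stem as higher. It was called higher in stem than in leaf (as 14.1% of all unigenes were), flower and mature fruit. The differences of flower and mature fruit from stem were -1.43 and -1.37. Both calls were lost without stem library 1 (-1.20 and -1.14), in a fit on the pair alone (limma adjusted p = 0.0411 and 0.0161) and with a pseudocount of 0.01 (-3.46 and -2.89, limma adjusted p = 0.0107 and 0.0210). That against flower was also lost without flower library 1 or 2 (-1.26 for each), and that against mature fruit without mature fruit library 3 (-1.17) or without libraries 2 and 3 (-1.21, limma adjusted p = 0.0537). None of its calls passed with a pseudocount of 1. DN140462_c0_g1 (MYB9), at 0.241 to 1.48 FPKM, and DN129697_c0_g1 (MYB96), at 0.710 FPKM in leaf library 3 and at most 0.253 elsewhere, were not called in the main fit. In fits on the pair alone, 3 of the 4 barrier homologs were called. The second MYB9 unigene, DN140462_c0_g3, was not tested.

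Each of the 3 unigenes shares its Trinity component, a set of contigs with common sequence, with other unigenes, and reads may be shared within a component. In all there were 12 such partners, of which 11 were tested and 8 differed between at least 1 pair of tissues (69.8% over all unigenes). None of the 4 partners of DN144669_c3_g1 was highest in flower. They include DN144669_c3_g3, named after MYB330, a repressor of phenolic metabolism in snapdragon, at 25.3, 30.2 and 25.9 FPKM in stem and 5.27, 5.26 and 6.77 in flower, a flower minus stem difference of -2.22 (SE 0.25, limma adjusted p = 1.41e-05). DN144669_c3_g4, which has no name in the study's table, had 99.4 to 112 FPKM in young fruit, 60.6 to 78.3 in stem and 8.95 to 11.4 in flower. DN144669_c3_g5 and DN144669_c3_g6, named after MYB308, a second snapdragon repressor, had at most 0.105 FPKM in flower. Sharing of reads between DN144669_c3_g1 and these partners was not tested.

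All 3 partners of DN144626_c1_g2 differed between tissues. DN144626_c1_g1 had 33.8, 41.8 and 39.9 FPKM in leaf and 2.15 to 10.5 in the other tissues, and its difference from leaf was -3.05 in stem (SE 0.26, limma adjusted p = 6.57e-07) and -2.20 in flower (SE 0.26, limma adjusted p = 1.68e-05). Unlike DN144626_c1_g2 it did not decline from young to mature fruit, where it was 1.21 higher (SE 0.26, limma adjusted p = 0.00165). DN144626_c1_g5 had 8.24 to 8.43 FPKM in leaf and 6.69 to 7.67 in flower, and at most 1.77 in the other tissues. The remaining partner was low and was highest in flower, at 0.443 to 0.753 FPKM, against 0.0681 to 0.119 in leaf. Its flower minus leaf difference was 1.91 (SE 0.30, limma adjusted p = 0.000206), where 12.2% of all were called higher. The component of DN149746_c2_g7 holds 5 partners, and the MYB36-like DN149746_c2_g4 given above is one of them. How reads were divided between these MYB36-like unigenes was not tested. Of the 5 partners, 2 differed between tissues. One of these 2 also had its flower libraries above all others (9.14% of the unigenes tested), by a small margin, at 0.883 to 0.929 FPKM in flower and at most 0.868 elsewhere. It was lower in mature fruit than in the other 4 tissues. DN149746_c2_g1, the most abundant of them, had 6.53 to 7.93 FPKM in flower and 7.26 to 9.68 in stem, and it was lowest in leaf, at 2.01 to 3.44.

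**Figure D4:**
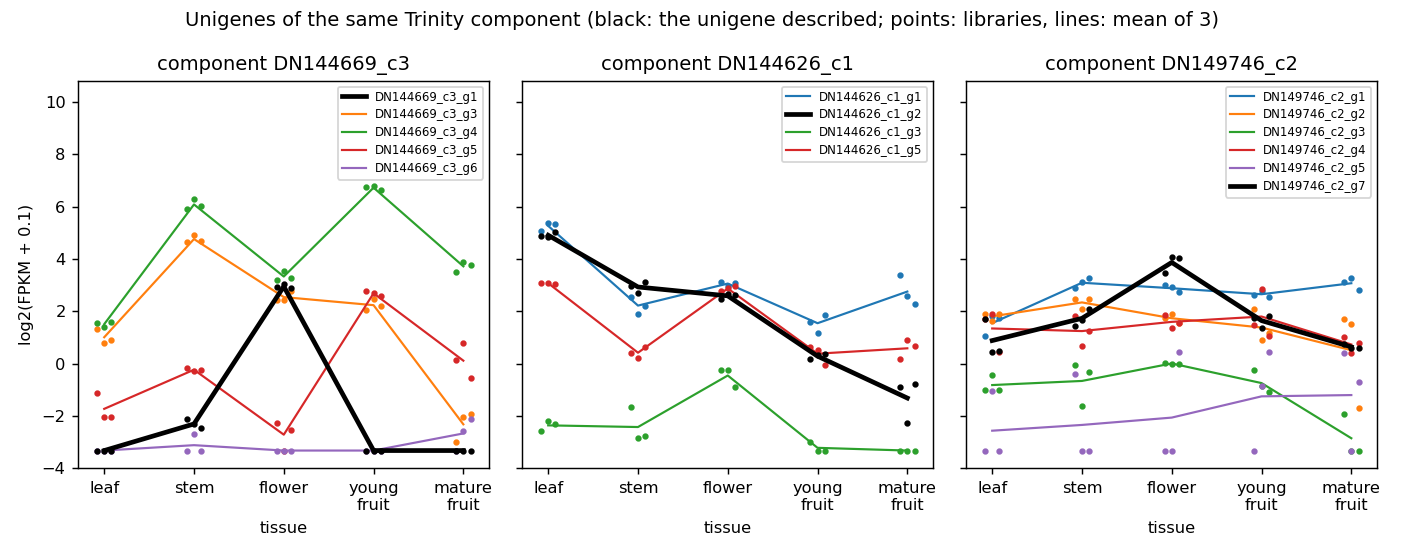
Level on the log2(FPKM + 0.1) scale (vertical axis) of the unigenes in the Trinity components of the 3 unigenes, by tissue. Black marks the unigene described, points are libraries and lines join the means of 3 only to guide the eye. In the left panel the black line peaks in flower, in the middle panel DN144626_c1_g1 and DN144626_c1_g5 are also high in leaf (33.8 to 41.8 and 8.24 to 8.43 FPKM), and in the right panel the black line peaks in flower at 11.02 to 16.7 FPKM.

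Likeness of profile was measured as Pearson's r of log2(FPKM + 0.1) over the 15 libraries, which share 5 tissues, so each r mostly reflects tissue means. It is given as a description. Among the MYBs tested, the nearest to DN144669_c3_g1 were DN147925_c5_g4 (r = 0.987), named after the anthocyanin activator MYB90 and at 13.7 FPKM in flower, DN146459_c2_g4 (r = 0.978), at 0.857 FPKM in flower and listed at 0 elsewhere, and DN149746_c2_g7 (r = 0.913). The nearest to DN144626_c1_g2 were DN136168_c0_g1 (r = 0.966), named after MYB308, DN142862_c4_g4 (r = 0.956), named after the flavonol activator MYB11, and DN146459_c0_g1 (r = 0.955), named after MYB330. Their means in leaf were 59.4, 11.3 and 18.3 FPKM, above those in each other tissue. The nearest to DN149746_c2_g7 were DN144669_c3_g1 (r = 0.913), DN70434_c0_g1 (r = 0.912) and DN138619_c0_g2 (r = 0.905), named after MYB3, a repressor of phenylpropanoid genes in Arabidopsis. The 2 MYB306-like unigenes described were not alike (r = 0.206), and DN144626_c1_g2 ran against the fruit-high DN145149_c1_g1 (r = -0.880) and DN146048_c0_g6 (r = -0.894), whereas these 2 were alike (r = 0.965).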

How the data were processed

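RNA was sequenced from the 5 tissues in the labels, 3 libraries each. Per the labels and the paper, the authors trimmed with Trimmomatic, assembled the pooled reads with Trinity, aligned with Bowtie2 and estimated abundance with RSEM (tool versions: not given in the sources used here). The deposited unit is FPKM, for 63727 unigenes. It holds no read counts, so no counting interval is given.

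The level of a unigene was modelled on the log2(FPKM + 0.1) scale in limma (version 3.58.1, R 4.3.3). The model held 15 libraries and a mean for each tissue, with a variance prior that depends on the level. A unigene entered the test if 3 or more libraries exceeded 0.1 FPKM, which left 51175. Benjamini-Hochberg adjustment was done separately for each of the 10 pairs of tissues. A difference was called where the adjusted p did not exceed 0.01 and its size on the log2 scale reached 1. The paper's methods give these thresholds and no test. The script was tested on simulated data. Figures were drawn in Python 3.11.15 with matplotlib 3.10.9.

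The unigenes described, the lists and the tests were chosen with earlier results of these data known. Named are the 3 unigenes, the other 8 MYB306-like and MYB36-like unigenes, the 5 homologs of MYB96, MYB9, MYB39 and MYB92, the 3 nearest MYBs to each, and from the components the MYBs and up to 2 others. Component partners given without a name were added after their values were seen. Names come from the study's MYB table, and all 163 of its IDs matched the files. Alternatives tried were 2 other pseudocounts, 2 other filters, scaling by median of ratios, a variance prior with no trend, fits on the pair of tissues alone, a block for the replicate number, and fits without single libraries or without mature fruit libraries 2 and 3.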

Additional observations from a re-analysis of the deposited data

How the results depend on the processing

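The alternatives were run on the difference between the highest and the next tissue of each of the 3 unigenes, on the calls for named unigenes and on the counts of calls, and none of these differences changed sign. The flower minus stem difference of DN144669_c3_g1 (5.26) was 6.10 with a pseudocount of 0.01, 2.97 with a pseudocount of 1 and 5.13 with median-of-ratios scaling. In stem this unigene had 0.0803 to 0.129 FPKM, near the pseudocount of 0.1 of the main fit. Leaving out each library in turn gave 5.17 to 5.35 for it, 1.87 to 2.08 for leaf minus stem of DN144626_c1_g2 and 2.0 to 2.33 for flower minus stem of DN149746_c2_g7. The counts of unigenes called, 3 of the other MYB306-like and MYB36-like unigenes, 2 of the barrier homologs and 8 in the components, were the same without any one library. In fits on the pair of tissues alone, 3 of the 4 barrier homologs tested were called. With a pseudocount of 1, 1 of the other MYB306-like and MYB36-like unigenes, 1 barrier homolog and 6 unigenes in the components were called. With at least 1 FPKM required in 3 libraries, fewer unigenes were tested. Then 2 of 3 other MYB306-like and MYB36-like unigenes, 1 of 2 barrier homologs and 6 of 9 unigenes in the components were called. Among the calls for single unigenes that could be tested under the alternatives, 579 still passed and 36 did not. Scaling moved the median of all unigenes by more than 0.1 only for young fruit minus leaf (by -0.14), but single unigenes moved more in other comparisons with leaf. The scaling factors were 0.857 to 0.886 in leaf and 1.09 to 1.11 in flower. Flower minus leaf of the MYB92 homolog went from 2.30 to 1.97. With scaling this homolog no longer passed for stem and mature fruit against leaf (0.94 and 0.86).

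With the replicate number as a block, the counts were 3, 2 and 8 and the differences of the 3 unigenes 5.26, 1.98 and 2.14, and 35372 instead of 35695 unigenes were called in all. Deviations of same-numbered libraries from their tissue means had an r from -0.0419 to 0.0613 (none of 30 above 0.1). The median was 0.006, against -0.002 for pairs of unlike number. Of the 15 libraries, 10 were nearest to one of their own number, although only 30 pairs were of the same number, against 60 of unlike number. Whether same-numbered libraries come from the same plants was not tested.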

Other observations

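The profiles of the 3 unigenes differed in how many others resembled them. Of 51174 other unigenes tested, 344 had a Pearson's r of at least 0.95 with DN144669_c3_g1 over the 15 libraries, 219 with DN144626_c1_g2 and 7 with DN149746_c2_g7. MYBs made up 2, 3 and 0 of these. The counts are a description, since the libraries share 5 tissues and the unigenes were chosen with their levels known.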
